A study of Mus musculus with 59 samples.

Results

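The sites that BCL6, PPARα and PPARδ occupied at 10 autophagy genes of mouse liver are described here from ChIP-seq peak lists. The genes were *Ulk1*, *Becn1*, *Wipi1*, *Atg7*, *Map1lc3a*, *Map1lc3b*, *Gabarapl1*, *Sqstm1*, *Bnip3* and *Tfeb*, of 21774 protein-coding genes annotated. A peak was counted at a gene when its centre lay inside the gene, or when the nearest protein-coding transcription start site (TSS) was that gene's and lay within 100 kb. The rule used no measured value, and it gave the 10 genes 35 of 38462 sites. A site here is a group of peaks of the C57BL/6 lists whose centres lay within 200 bp of each other.

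ChIP-seq, which sequences the DNA fragments pulled down with an antibody to a DNA-binding protein, had been run on whole livers of male wild-type C57BL/6 mice, either fed *ad libitum* or fasted overnight. The 6 C57BL/6 lists cover BCL6, PPARα and PPARδ in each state. A seventh list holds BCL6 peaks of fed male *Bcl6* fl/fl livers of the same strain, which carry loxP-flanked *Bcl6* alleles without Cre and are labelled wild type. Each list merges 3 livers into positions alone. No peak height, no read count and no spread between livers could therefore be given, the depth is unknown, and no difference between states was tested. Shares are given with a 95% Wilson interval, and no other source of error enters it than counting. The ages of the mice were not given in the sources used here. Whole liver holds other cells beside hepatocytes, and which of them carried a peak cannot be told from the lists.

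Autophagy encloses cytoplasm, lipid droplets or organelles in a double membrane and delivers them to the lysosome, and in liver it is well known as a response to fasting that releases amino acids and fatty acids. The ULK1 kinase starts the process, a lipid kinase complex with Beclin 1 marks the growing membrane, WIPI proteins read that mark, and ATG7 drives the attachment of ATG8-family proteins to the membrane. Receptors such as p62 and BNIP3 then tether the cargo, while TFEB transcribes many genes of the pathway. PPARα is the fatty acid-activated nuclear receptor of the fasting response, PPARδ its relative, and BCL6 a zinc-finger repressor.

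Of the 35 sites, 11 held a match to a consensus sequence of BCL6, of the PPARs or of TFEB-type factors in the 200 bp around the centre. Their sequences are shown because they place these letters in the bound regions, together with the single site of *Map1lc3b*, which was called in 5 of the 6 C57BL/6 lists and held no match. Each is the plus strand of mm10. Capitals mark the BCL6 element TTCCTAGAA with at most 1 mismatch, a direct repeat of AGGTCA with a 1-base spacer and at most 2 mismatches, or the E-box CACGTG without mismatch, on either strand. Such matches were also found at sites elsewhere. The BCL6 element was in 14.3% of the 35 sites and 9.86% of all 38462. The direct repeat was in 14.3% and 13.5%, and the E-box in 2.86% and 4.77%. The gene, the distance from its 5′ end and the kind of match stand before each sequence.
Sqstm1 8691 bp downstream, BCL6 element (chr11:50202089-50202168): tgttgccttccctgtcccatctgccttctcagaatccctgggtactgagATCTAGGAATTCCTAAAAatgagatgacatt
Bnip3 9922 bp upstream, BCL6 element (chr7:138919367-138919467): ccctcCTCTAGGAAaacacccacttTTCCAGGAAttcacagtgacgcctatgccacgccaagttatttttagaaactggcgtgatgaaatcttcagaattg
Bnip3 5266 bp downstream, BCL6 element (chr7:138904200-138904339): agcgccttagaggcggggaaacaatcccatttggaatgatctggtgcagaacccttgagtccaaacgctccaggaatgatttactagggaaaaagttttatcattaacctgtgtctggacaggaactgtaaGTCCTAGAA
Atg7 14254 bp downstream, BCL6 element (chr6:114657321-114657420): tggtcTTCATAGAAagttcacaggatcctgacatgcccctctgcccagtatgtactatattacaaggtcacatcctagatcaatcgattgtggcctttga
Wipi1 18809 bp upstream, BCL6 element (chr11:109630139-109630237): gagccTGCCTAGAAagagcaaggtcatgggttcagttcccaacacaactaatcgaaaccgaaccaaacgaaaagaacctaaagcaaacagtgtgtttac
Tfeb 13201 bp downstream, direct repeat (chr17:47750198-47750327): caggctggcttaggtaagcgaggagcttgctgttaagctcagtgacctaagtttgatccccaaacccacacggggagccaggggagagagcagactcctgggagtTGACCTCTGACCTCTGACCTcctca
Ulk1 14693 bp downstream, direct repeat (chr5:110795379-110795466): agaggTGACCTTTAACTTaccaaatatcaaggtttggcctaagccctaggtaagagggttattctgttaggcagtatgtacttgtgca
Map1lc3a 9335 bp upstream, direct repeat (chr2:155266989-155267081): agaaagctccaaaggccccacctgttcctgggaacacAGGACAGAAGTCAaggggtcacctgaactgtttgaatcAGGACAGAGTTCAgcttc
Sqstm1 1306 bp upstream, direct repeat (chr11:50212086-50212165): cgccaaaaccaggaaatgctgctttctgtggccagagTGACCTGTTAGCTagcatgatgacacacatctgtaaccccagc
Bnip3 1406 bp downstream, direct repeat (chr7:138908060-138908139): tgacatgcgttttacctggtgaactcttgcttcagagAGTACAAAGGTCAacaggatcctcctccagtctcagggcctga
Ulk1 12213 bp downstream, E-box (chr5:110797867-110797962): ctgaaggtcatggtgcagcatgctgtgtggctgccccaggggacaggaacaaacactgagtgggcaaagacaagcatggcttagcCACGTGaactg
Map1lc3b 29168 bp downstream, no match (chr8:121619566-121619645): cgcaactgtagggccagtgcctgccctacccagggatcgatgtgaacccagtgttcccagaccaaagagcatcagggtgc

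Fewer BCL6 and PPARδ peaks and more PPARα peaks stood at the 10 genes in the fasted than in the fed lists. The BCL6 peaks at them numbered 13 fed and 6 fasted. Those of PPARα numbered 19 fed and 27 fasted, and those of PPARδ 10 fed and 2 fasted. The whole lists moved the same way, from 15642 to 9613 peaks for BCL6, from 21410 to 29085 for PPARα and from 7328 to 2399 for PPARδ. In percent of the fed count, the change was -53.8% at the genes and -38.5% in the whole list for BCL6, 42.1% and 35.8% for PPARα, and -80.0% and -67.3% for PPARδ. BCL6 peaks stood at 7 of the 10 genes in fed and 4 in fasted livers, against 28.0% and 20.6% of all protein-coding genes. PPARα peaks stood at 8 and 9 of them, against 34.3% and 46.0%, and PPARδ peaks at 6 and 2, against 18.6% and 8.70%.

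**Figure D1:**
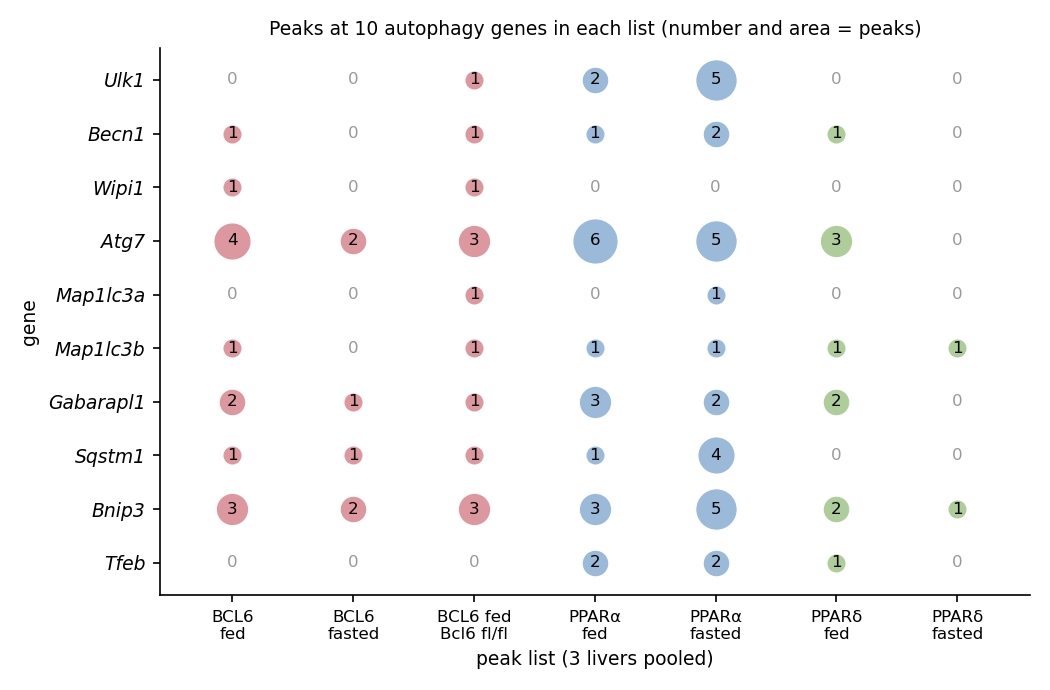
Number of peaks at each of the 10 genes (rows) in each of the 7 lists (columns, each 3 pooled livers), written in the circle and shown by its area. *Atg7* and *Bnip3* have the most BCL6 peaks, *Ulk1*, *Atg7* and *Bnip3* each have 5 fasted PPARα peaks, and the fasted PPARδ list has a peak at *Map1lc3b* and *Bnip3* alone.

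*Ulk1* (chr5:110784489-110810120, minus strand), the kinase that starts autophagosome formation, had 2 PPARα peaks in fed and 5 in fasted livers and none of BCL6 or PPARδ in C57BL/6 livers. All 5 sites lay in introns. The sites 12213 and 1994 bp downstream of the 5′ end were called in both states, and those at 9032, 9670 and 14693 bp in fasted livers alone. The *Bcl6* fl/fl list added a BCL6 peak, chr5:110807972-110808174, at the intron 3 site nearest to the start (chr5:110808007-110808243). That site therefore had BCL6 in one fed list and not in the other. The direct repeat shown above lay in the fasted-only site at 14693 bp, and the E-box in the site at 12213 bp.

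*Becn1* (chr11:101288258-101302286, minus strand) encodes Beclin 1, the regulatory subunit of the lipid kinase complex that nucleates the membrane. It had 2 sites. The first, chr11:101291288-101291573, lay over coding exon 9, at 10847 bp from the 5′ end, and was called for BCL6 in fed, PPARδ in fed and PPARα in both states. The second, chr11:101302170-101302392, was centred 5 bp downstream of the 5′ end and was called for PPARα in fasted livers alone.

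*Wipi1* (chr11:109573521-109611389, minus strand), whose product binds the phosphoinositide made by that kinase, had 1 site, chr11:109630090-109630306. It was centred 18809 bp upstream of the gene, between genes, and was called for BCL6 in fed livers of both genotypes. No PPARα or PPARδ peak was counted at *Wipi1*, which made it the one gene of the 10 without PPARα. With the 5′ end of each gene as its only start, *Wipi1* had 1 PPARα peak in each state.

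*Atg7* (chr6:114643127-114860604, plus strand), the E1-like enzyme of the conjugation steps, had the most sites, 8, over the longest gene of the group (217478 bp). The fed and fasted lists gave it 4 and 2 BCL6 peaks, 6 and 5 PPARα peaks, and 3 and 0 PPARδ peaks. Of its sites 5 lay between 19 bp upstream and 20743 bp downstream of the 5′ end. The site 19 bp upstream of the 5′ end was called for PPARα in fed livers alone. The next, at 3261 bp in intron 1 (chr6:114646266-114646511), held BCL6 and PPARδ in fed and PPARα in both states. At 5729 bp PPARα was called in fed livers alone, with BCL6 added only by the *Bcl6* fl/fl list. The intron 1 sites at 14254 bp (chr6:114657261-114657527) and 20743 bp (chr6:114663746-114663996) held BCL6 and PPARα in both states and PPARδ in fed livers. The other 3 sites lay in intron 18, at 138797, 144713 and 169373 bp, where the nearest TSS was that of *Vgll4* and not of *Atg7*. They were counted through the gene body alone. The first of them held PPARα in fasted livers, the second PPARα in both states and the third BCL6 in fed livers.

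The ATG8-family genes encode the small proteins that are joined to lipids of the autophagosome membrane, and their sites differed. *Map1lc3a* (chr2:155276364-155278073, plus strand) had 1 site, 9335 bp upstream at chr2:155266918-155267140, called for PPARα in fasted livers and for BCL6 in *Bcl6* fl/fl fed livers. It held 2 direct repeats, each with 2 mismatches. *Map1lc3b* (chr8:121590438-121598760, plus strand), which encodes the LC3B protein commonly used as an autophagosome marker, had 1 site as well, chr8:121619486-121619746, 29168 bp downstream of its 5′ end and inside intron 2 of the neighbouring *Zcchc14*. It was called in every C57BL/6 list but fasted BCL6.

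*Gabarapl1* (chr6:129533192-129542331, plus strand) had 4 sites, all upstream of the gene. The site at 6945 bp (chr6:129526089-129526373) held BCL6 and PPARδ in fed and PPARα in both states. The site at 3708 bp held PPARδ in fed livers alone, and the site at 2710 bp BCL6 and PPARα in fed livers. At the promoter site, at 400 bp (chr6:129532674-129532907), BCL6 was called in fasted livers alone, beside PPARα in both states. It was the one site of the 35 with BCL6 in fasted and not in fed C57BL/6 livers.

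The cargo receptors carried 10 of the sites. *Sqstm1* (chr11:50200152-50210820, minus strand) encodes p62, which links ubiquitinated cargo to LC3, and had 1 PPARα peak in fed and 4 in fasted livers. BCL6 had 1 peak there in each state, and PPARδ had none. In intron 7 the BCL6 site at 8691 bp (chr11:50202005-50202250) and the PPARα site at 9017 bp (chr11:50201680-50201929) were both called in both states, and were counted as separate sites. The BCL6 site held 2 BCL6 elements that met end to end, and the PPARα site held no match. The other 3 sites, at 5375 bp in intron 5 and at 1306 and 2448 bp upstream, were fasted-only PPARα sites. With the starts of curated transcripts alone, peaks between *Sqstm1* and the neighbouring *Mrnip* counted for *Sqstm1* as well, and it had 3 BCL6 peaks in each state, 2 fed and 6 fasted PPARα peaks.

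*Bnip3* (chr7:138890836-138909506, minus strand) encodes a receptor of the outer mitochondrial membrane used in mitophagy. It had 3 BCL6 peaks in fed and 2 in fasted livers, 3 and 5 of PPARα, and 2 and 1 of PPARδ. The site 9922 bp upstream, chr7:138919225-138919681, was the only one of the 35 called in all 6 C57BL/6 lists, and it was called in *Bcl6* fl/fl livers too. Over all sites 1.76% were called in 6 lists. It was also the widest site, at 456 bp, with the mean BCL6 and PPARα centres 169 bp apart. The intron 1 site at 5266 bp (chr7:138904095-138904377) held BCL6 and PPARα in both states, and the site 4354 bp upstream (chr7:138913713-138913988) held BCL6 and PPARδ in fed and PPARα in both states. The sites at 1406 bp in intron 1 and at 356 bp upstream were called for PPARα in fasted livers alone. The *Bcl6* fl/fl list added a BCL6 peak at 11122 bp with no C57BL/6 site within 200 bp.

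*Tfeb* (chr17:47737037-47792416, plus strand), the transcription factor of lysosome and autophagy genes, had 2 PPARα peaks in each state, 1 PPARδ peak in fed livers and none of BCL6 in any of the 3 BCL6 lists. All 3 sites lay in intron 1. The PPARα site at 13201 bp (chr17:47750126-47750353) held 2 exact direct repeats that shared a half-site, the only exact ones in the 35 sites. The PPARδ site at 25178 bp and the PPARα site at 25537 bp stood next to each other and were not joined.

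**Figure D2:**
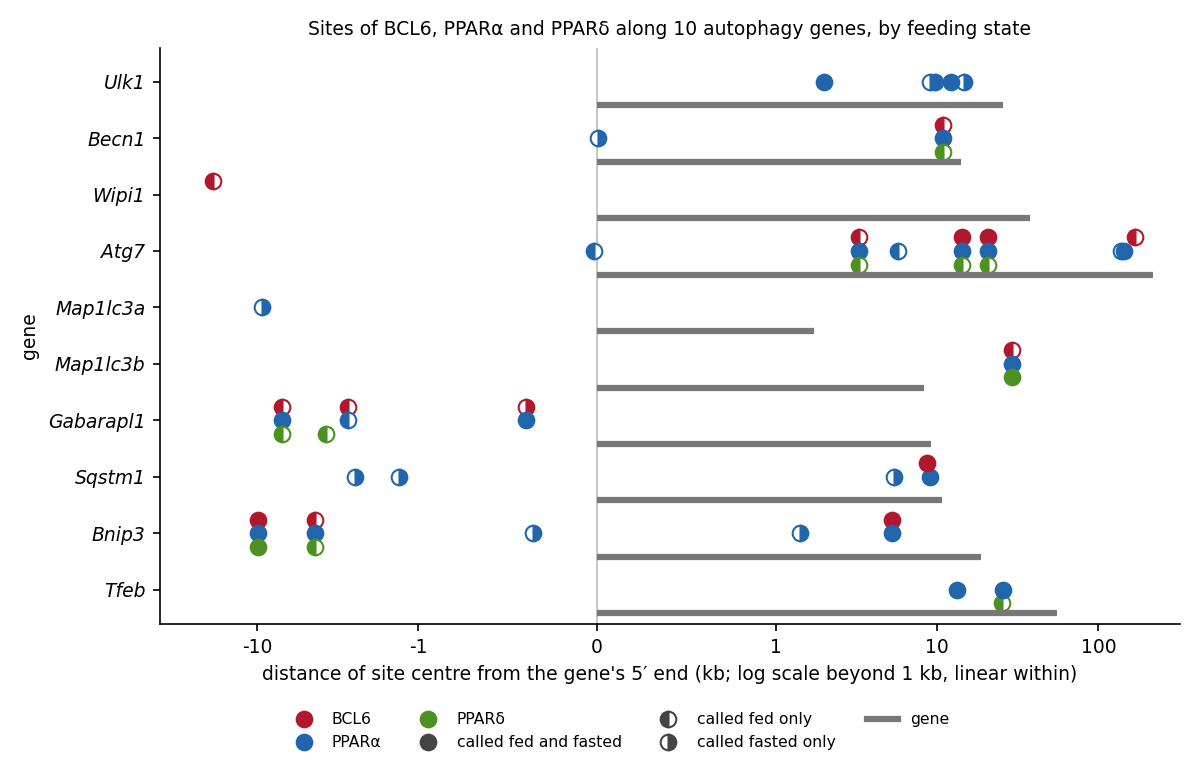
Each circle is a factor called at a site, placed by the distance of the site centre from the 5′ end of the gene in kb (logarithmic beyond 1 kb, linear within; negative is upstream), with colour for the factor, a full circle for calls in fed and fasted livers and a filled left or right side for fed or fasted livers alone. Grey bars are the genes. BCL6 circles are full or filled on the left except at the *Gabarapl1* promoter, and the fasted-only PPARα circles stand without BCL6 of the C57BL/6 lists.

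The feeding state of the sites at the genes is given beside that of each factor over the genome. Of 14 BCL6 sites at the genes, 8 were called in fed livers alone (57.1%, interval 32.6 to 78.6%), against 45.4% of all 17599 BCL6 sites. Another 5 were called in both states, against 43.5% of all, and 1 in fasted livers alone, against 11.1%. Of 30 PPARα sites, 16 were called in both states (53.3%, interval 36.1 to 69.8%), 11 in fasted livers alone (36.7%, interval 21.9 to 54.5%) and 3 in fed livers alone. Over all 33399 PPARα sites the shares were 51.2%, 35.9% and 12.9%. Of 10 PPARδ sites, 8 were called in fed livers alone (80.0%, interval 49.0 to 94.3%), 2 in both states and 0 in fasted livers alone (interval 0 to 27.8%). Over all 8197 PPARδ sites the shares were 70.7%, 18.7% and 10.6%. Each share over all sites lay within the interval of the share at the genes. The lists do not show whether a site missing in 1 state had reads under the threshold there.

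**Figure D3:**
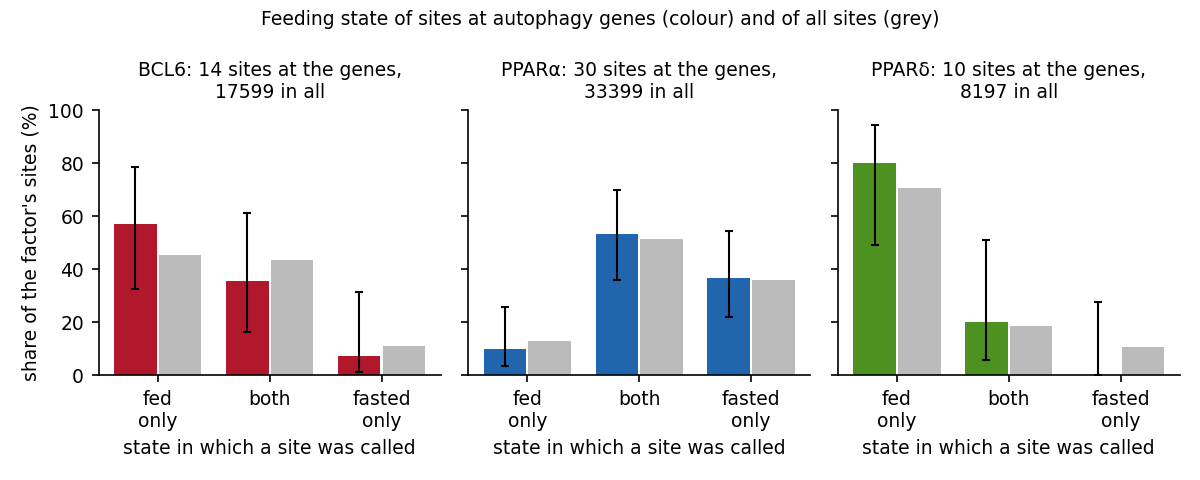
Share of sites in percent that were called in fed livers alone, in both states or in fasted livers alone, for each factor, at the 10 genes (coloured bars with 95% Wilson intervals) and over all sites (grey bars). The grey bars stand within the intervals, with BCL6 and PPARδ highest in fed only and PPARα highest in both.

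BCL6 and PPARα met, with or without PPARδ, at 11 of the 35 sites, and at 13633 of all 38462 sites. The 11 sites lay at *Becn1*, *Atg7*, *Map1lc3b*, *Gabarapl1* and *Bnip3*. Of the 35 sites, 8 held all 3 factors (22.9%, interval 12.1 to 39.0%), against 12.1% of all 38462 sites, at the lower end of the interval. These 8 were the *Becn1* exon site, 3 sites of *Atg7*, the *Map1lc3b* site, the farthest upstream site of *Gabarapl1* and 2 upstream sites of *Bnip3*. BCL6 and PPARα without PPARδ stood at 3 sites (8.57%, interval 2.96 to 22.4%), against 23.4% of all sites, so that this share over all sites lay just above the interval. Over the alternative settings of the closing section the share at the genes ranged from 8.57% to 12.8%, the highest with gene 5′ ends alone. No interval was set beside 23.4% for those settings, so whether it lies outside the interval there is not known. PPARα alone stood at 19 sites (54.3%), BCL6 alone at 3 (8.57%) and PPARδ alone at 2 (5.71%), against 45.3%, 10.0% and 2.97% of all sites. No site at the genes held BCL6 with PPARδ and no PPARα, or PPARα with PPARδ and no BCL6, against 0.224% and 6.03% of all sites. With joining at 200 bp, the PPARδ peaks at these genes were thus either at a site with both other factors or alone. Joining at 400 bp, which gave 33 sites, merges the *Tfeb* PPARδ site at 25178 bp with the PPARα site at 25537 bp. It also merges the *Sqstm1* BCL6 site at 8691 bp with the PPARα site at 9017 bp. Where BCL6 and PPARα met, their mean centres were at most 169 bp apart with a median of 28.5 bp, and 25.0 bp over all 13633 such sites.

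**Figure D4:**
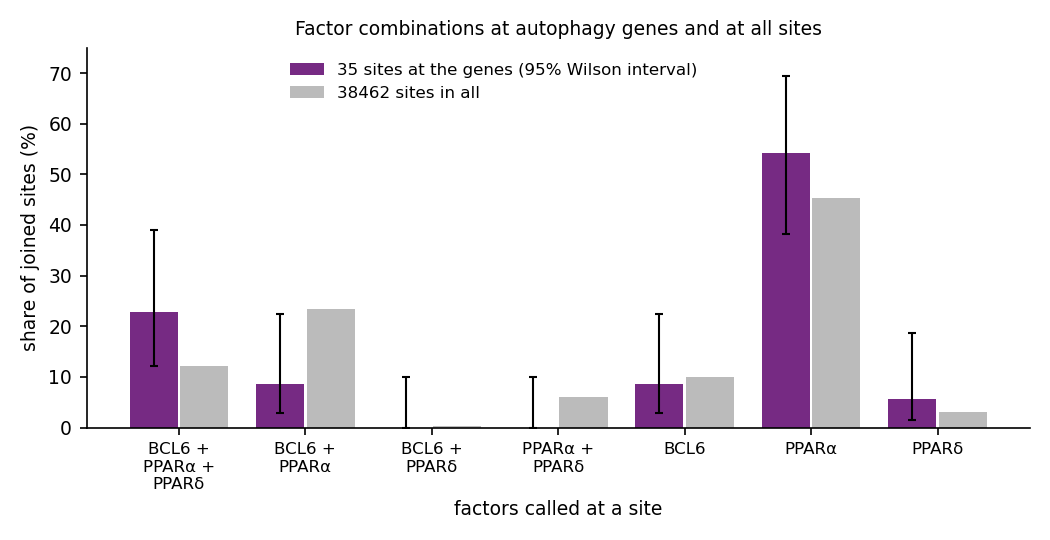
Share of joined sites in percent by the factors called there, in either feeding state, for the 35 sites at the 10 genes (purple, 95% Wilson intervals) and for all 38462 sites (grey). Sites of all 3 factors are 22.9% at the genes and 12.1% in all, and sites of BCL6 with PPARα alone are 8.57% and 23.4%.

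PPARα at the sites with BCL6 was called in both states at 10 of 11 and in fed livers alone at 1, the *Gabarapl1* site 2710 bp upstream. None of these 11 was fasted only (interval 0 to 25.9%), against 11.6% of all 13633 PPARα sites with BCL6. Among the 19 PPARα sites without BCL6, 11 were fasted only (57.9%, interval 36.3 to 76.9%), against 52.6% of all 19738. All 11 fasted-only PPARα sites at the genes therefore lacked BCL6 of the C57BL/6 lists, as did 86.7% of the 11961 over the genome. They lay at *Ulk1* and *Sqstm1*, 3 each, at *Bnip3*, 2, and at *Becn1*, *Atg7* and *Map1lc3a*, 1 each. The *Map1lc3a* site had BCL6 in the *Bcl6* fl/fl list. BCL6 was called in fed livers alone at 6 of the 11 shared sites, in both states at 4 and in fasted livers alone at 1. At 5 of these 11 sites (45.5%) BCL6 was fed only while PPARα was called in both states, and 25.1% of all shared sites had that pair of calls.

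Promoters, taken as 1000 bp upstream to 100 bp downstream of a TSS, held 4 of the 35 sites (11.4%, interval 4.54 to 26.0%), against 13.5% of all sites. They were the sites at *Becn1*, *Atg7*, *Gabarapl1* and *Bnip3*. The *Becn1* and *Bnip3* promoters held PPARα in fasted livers alone, the *Atg7* promoter PPARα in fed livers alone, and the *Gabarapl1* promoter PPARα in both states with BCL6 in fasted livers. None of these 4 promoter sites held PPARδ, which is too few sites to show a lack of it. A further 22 sites lay inside genes (62.9%, against 49.5% of all sites) and 9 between genes (25.7%, against 37.0%). The nearest TSS of any protein-coding gene was 5 to 90458 bp away, with a median of 4354 bp, against 14480 bp over all sites. The rule itself limits sites at the genes to gene bodies or to 100 kb around a TSS. All sites had no such limit and reached 2241009 bp. The differences in distance and in the shares inside and between genes are therefore partly set by the rule.

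All 10 genes had at least 1 site, as did 51.5% of protein-coding genes, a set that includes genes silent in liver. BCL6 sites were counted at 7 of the 10 genes, against 30.0% of all genes. PPARα sites were counted at 9, against 48.2%, and PPARδ sites at 6, against 20.5%. A site of all 3 factors was counted at 5 of the genes, against 12.5% of all. The median was 3.50 sites at the 10 genes and 1 over all genes. *Atg7* with 8 sites stood above 94.9% of genes, and *Ulk1*, *Sqstm1* and *Bnip3* with 5 each above 88.2%. *Wipi1*, *Map1lc3a* and *Map1lc3b* with 1 site each stood above 48.5%.

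The order changed once the length that the rule gives to a gene was taken into account. *Sqstm1*, with 17925 bp, had 27.9 sites per 100 kb, more than 99.5% of genes. With curated transcripts alone, sites toward the neighbouring *Mrnip* counted for *Sqstm1* as well, and no density is given for that setting. *Gabarapl1* had 17.1 sites per 100 kb, *Ulk1* 12.4 and *Bnip3* 10.6. *Atg7*, with 309780 bp, fell to 2.58 sites per 100 kb, above 67.9% of genes, and *Map1lc3a* was lowest with 1.66. The median was 6.73 sites per 100 kb at the 10 genes and 0.499 over all genes. The lists give no liver expression to compare these genes with others of like activity.

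**Figure D5:**
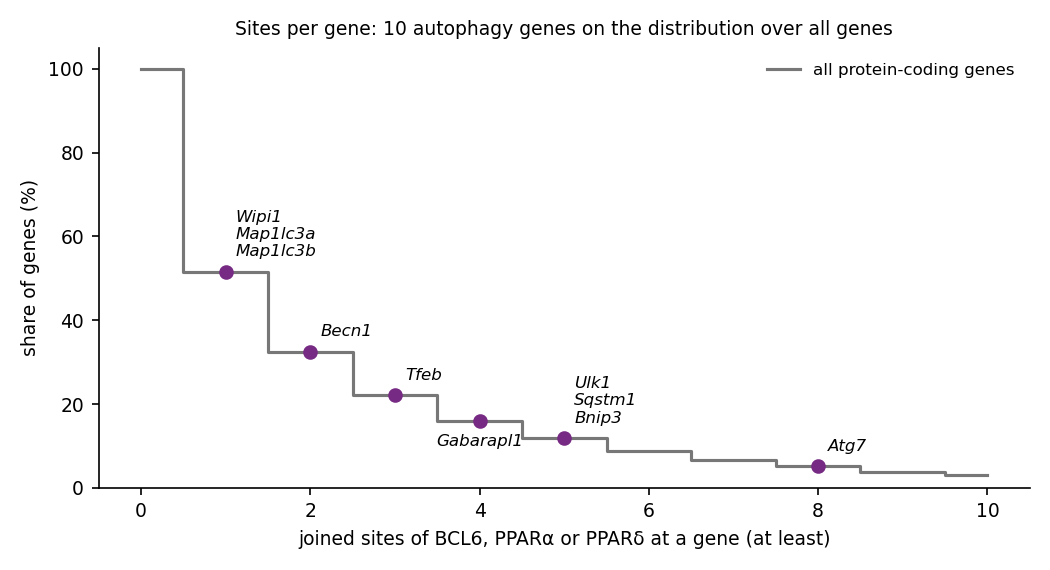
Share of protein-coding genes in percent (vertical axis) with at least the number of joined sites on the horizontal axis, drawn as a grey line, with the 10 genes marked at their own number. *Atg7* stands at 8 sites, which 5.10% of genes reach, and *Wipi1*, *Map1lc3a* and *Map1lc3b* stand at 1 site, which 51.5% reach.

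The sequences shown above were set beside those of all sites. The BCL6 element, with at most 1 mismatch, was found in 5 of 14 sites with BCL6 (35.7%, interval 16.3 to 61.2%) and in 0 of 21 without (interval 0 to 15.5%). Over all sites the shares were 15.1% with BCL6 and 5.46% without. Every BCL6 element at the genes had 1 mismatch, the most allowed. With 1 mismatch fewer none of the 35 sites held it. Within 50 bp of sequence 1 of the 35 held it (2.86%), against 2.72% of all sites. These stricter searches were not split into sites with and without BCL6, so that contrast is known for the wider search alone. The direct repeat was found in 5 of 30 PPARα sites (16.7%, interval 7.34 to 33.6%), against 14.0% of all PPARα sites, and in 0 of 14 sites with BCL6 (interval 0 to 21.5%), against 11.9% of all such sites. All 5 were sites of PPARα alone, and 4 of them, at *Ulk1*, *Map1lc3a*, *Sqstm1* and *Bnip3*, were called in fasted livers alone. Of the 11 fasted-only PPARα sites at the genes, 4 held the repeat (36.4%, interval 15.2 to 64.6%), against 14.1% of all fasted-only PPARα sites, just under the interval. Every repeat at these 4 sites had 2 mismatches, the most allowed. With 1 mismatch fewer none of the 4 held a repeat, and only the *Tfeb* site, called in both states, did. Of the 16 called in both states, 1 held it (6.25%, interval 1.11 to 28.3%), against 14.9% of all. The 8 sites of all 3 factors held no direct repeat (interval 0 to 32.4%), against 19.0% of all such sites. The E-box was found in 1 site, the *Ulk1* intron 5 site, against 4.77% of all sites. A match is a description of the letters, and no match at a site says nothing of what bound there.

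The 2 fed BCL6 lists differed at these genes as they did elsewhere. Of 13 fed C57BL/6 BCL6 peaks at the genes, 9 had a *Bcl6* fl/fl centre within 200 bp (69.2%, interval 42.4 to 87.3%), against 69.4% of all 15642. Of 13 *Bcl6* fl/fl peaks at the genes, 9 had a C57BL/6 fed centre in reach, against 62.2% of all 17454. The 4 *Bcl6* fl/fl peaks without one lay at *Map1lc3a*, *Ulk1*, *Atg7* and *Bnip3*, and 3 of them stood on a PPARα site. With this list 9 of the 10 genes had a fed BCL6 peak, all but *Tfeb*, against 30.9% of all genes, and 7 with the C57BL/6 list, against 28.0%. In count the 2 fed lists were equal, at 13 peaks each, and by position 4 of 13 had no partner in the other list. Between the fed and fasted C57BL/6 lists the count fell from 13 to 6. By position 8 BCL6 sites were called in fed livers alone and 5 in both states.

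Beyond the 10 genes, 66 other genes of the same pathway were counted by the same rule. BCL6 sites were found at 42 of them (63.6%), PPARα sites at 60 (90.9%) and PPARδ sites at 31 (47.0%), and 61 had a site of any factor. Over all protein-coding genes the shares were 30.0%, 48.2%, 20.5% and 51.5%. The peaks numbered 86 fed and 62 fasted for BCL6, 127 and 177 for PPARα, and 44 and 11 for PPARδ. In the whole lists they numbered 15642 and 9613, 21410 and 29085, and 7328 and 2399. Of the BCL6 sites at the 66 genes 37.4% were fed only (interval 28.5 to 47.2%), against 45.4% of all BCL6 sites. The share at the 10 genes was 57.1%. Of the PPARα sites at the 66 genes 36.5% were fasted only, against 35.9% of all. Of the PPARδ sites there 77.1% were fed only, against 70.7% of all. The genes of transcription and nutrient control carried 82 of the sites over 18 genes, and the 2 remaining ATG8-family genes carried 2. *Uvrag*, a Beclin 1 partner, had the most sites, 17, of which 8 held BCL6 and 13 PPARα. *Foxo3*, a transcription factor that drives autophagy genes in fasting, had 9 sites, of which 6 held all 3 factors. *Lamp2*, a lysosomal membrane protein, had 9 sites with 3 of BCL6 and 8 of PPARα. *Prkaa2*, a catalytic subunit of the AMP-activated kinase, had 8 sites with 7 of BCL6 and 7 of PPARα. The 2 fed BCL6 lists differed here too. *Prkaa2* had 6 fed BCL6 peaks in C57BL/6 and 2 in *Bcl6* fl/fl livers, and *Foxo3* had 5 and 9. *Mitf*, a relative of TFEB, had 7 sites over a span of 379454 bp.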

How the data were processed

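Livers of male C57BL/6 mice had been profiled by ChIP-seq for BCL6, PPARα and PPARδ, fed or fasted, and for BCL6 in fed *Bcl6* fl/fl mice, with 3 animals per condition. The authors used Bowtie on mm10, kept uniquely placed reads and 1 per start position, called peaks with HOMER on pooled replicates, and retained those that DESeq2 found enriched over background. The deposited lists give positions alone (chromosome, start, end), without counts, scores or normalization. The other samples of the series were not analysed here.

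Centres were the middle of each peak. Peaks of the 6 C57BL/6 lists, or of 1 factor for the feeding states, were joined by single linkage within 200 bp. TSS came from every RefSeq transcript of 21774 protein-coding genes of GRCm38, the assembly of mm10 (56206 TSS), and sequences from the same RefSeq assembly. A site counts for a gene when the centre of any of its peaks does. Introns and exons were numbered along the longest curated transcript over the centre. The span of a gene is the stretch in which the rule gives a centre to it. Shares carry 95% Wilson intervals (SciPy 1.17.1, Python 3.11.15). No test was made, since each list is 1 pooled set. Joining, assignment and sequence search were tested on simulated data. All 10 genes are named, with genes whose TSS is nearer to a counted site, and of the other autophagy genes the 5 with the most sites, ties in alphabetical order. The genes and lists were chosen with earlier results of these data known. Alternatives for the reach, the joining, the promoter and the sequence search are given in the closing section.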

Additional observations from a re-analysis of the deposited data

How the results depend on the processing

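No paired analysis was possible because the lists pool their replicates. Across 30 values, 183 alternative values were computed (a reach of 50 kb or 1 Mb, the nearest TSS alone, gene 5′ ends alone, joining at 100 or 400 bp or by overlap, a wider promoter, the *Bcl6* fl/fl fed list, curated transcripts alone, and other sequence searches). Of these, 179 stayed within 1.5 times the count or within the interval of the share. The other 4 were shares of sequence matches: within 50 bp of sequence the BCL6 element was in 2.86% of the sites and the E-box in 0%, and with 1 mismatch fewer the BCL6 element was in 0% and the direct repeat in 2.86%, in place of 14.3%, 2.86%, 14.3% and 14.3%. These searches allow fewer matches by construction, at the genes and elsewhere. In the same order, the shares over all sites were 2.72% and 1.15% within 50 bp. With 1 mismatch fewer they were 1% and 3.17%. Peaks at the genes ranged from 12 to 16 in fed and 6 to 9 in fasted livers for BCL6, from 18 to 21 and 25 to 30 for PPARα, and stayed at 10 and 2 for PPARδ. The count of 179 is a weak measure of stability. Both other reaches, joining at 100 bp and joining by overlap left the values at the 10 genes unchanged. The intervals are wide, and 9 fasted BCL6 peaks in place of 6 still counted as within 1.5 times.

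With curated transcripts alone, chosen after seeing the data, or gene 5′ ends alone, *Sqstm1* had 3 BCL6 peaks in each state, not 1, and 2 fed and 6 fasted PPARα peaks, not 1 and 4. With gene 5′ ends alone *Wipi1* had 2 fed and 1 fasted BCL6 peaks and 1 PPARα peak in each state, not 1, 0 and 0. The nearest TSS alone left *Atg7* with 3 fed BCL6 and 3 fasted PPARα peaks, not 4 and 5. A reach of 1 Mb added no peak at the 10 genes, and put BCL6 sites at 43 of the other autophagy genes, not 42. The depth of the lists is unknown and limits every count. Its part in the fed and fasted numbers was not tested.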

Other observations

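Sites just outside the rule stood beside *Sqstm1* and *Wipi1*. Downstream of *Sqstm1*, a BCL6 site called in both states (chr11:50194595-50194828), a fasted-only PPARα site (chr11:50194877-50195099) and a site of BCL6 and PPARα in both states (chr11:50197567-50197837) lay 13119 to 16110 bp from its 5′ end. They went to the neighbouring *Mrnip*, whose nearest predicted transcript start was 4315 to 7306 bp away. Downstream of *Wipi1*, a site of BCL6 and PPARα in both states (chr11:109556191-109556452) was nearer to a start of *Arsg*.

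The E-box CACGTG, the element that TFEB and its relatives bind, was looked for in the RefSeq promoters of GRCm38.p6 (250 bp before to 50 bp after the start). These were at hand for 8 of the 10 genes (10 promoters), without *Becn1* and *Map1lc3a*. It was found 108 bp upstream of a start of *Bnip3* and 132 bp upstream of a start of *Atg7*, in 2 of the 10 promoters, and in 9 of 70 promoters of the other autophagy genes (12.9%) and 7.15% of all 32851. None of the sites centred in a promoter had it in its own 200 bp. The E-boxes at *Atg7* and *Bnip3* lay outside the reach of those sites. The *Atg7* promoter with the E-box was chr6:114670846-114671145, a different one from that of the PPARα site at chr6:114643000-114643216. The *Bnip3* promoter site was centred 356 bp upstream, so its 200 bp did not reach the E-box.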
